A study of Mus musculus with 12 samples.

Results

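Nuclear receptors are transcription factors that bind small lipophilic ligands such as steroids, retinoids, vitamin D and oxysterols, and coregulators are the proteins they recruit to raise or lower transcription. Expression of 46 such genes was followed in mouse embryonic fibroblasts with and without the clock repressors CRY1 and CRY2 and with and without the synthetic glucocorticoid dexamethasone (Dex). The list holds most of the nuclear receptor superfamily, without Nr1d1, Nr1d2 and Pparg, and the main coregulators. It was chosen by gene name, though with earlier results of these data known. Of the 46 genes, 43 had at least 1 probe named for them on the bead array (63 probes in all), and 16 were above background and could be tested, out of 8420 genes tested in all. Above background means that 1 probe of the gene had a detection p below 0.01 on 3 or more of the 12 arrays.

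Steroid receptors such as the glucocorticoid receptor bind DNA as homodimers after the hormone has entered the cell. The receptors for retinoic acid, vitamin D, thyroid hormone, oxysterols and fatty acids pair with a retinoid X receptor (RXR), and several of them repress their targets when unliganded. Orphan receptors have no accepted natural ligand or were named before one was known, and several of them (the ROR, COUP-TF and testicular receptor groups) bind DNA without a hormone. Cryptochromes are known to bind several nuclear receptors, the glucocorticoid receptor among them, and the study asked how they bear on that receptor.

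Total RNA came from primary fibroblasts of E15.5 embryos of strain C57BL6/J. The control cells were Cry1+/-Cry2+/- by the sample labels, while the description of the series calls them WT. The double knockout cells (dKO) were Cry1-/-Cry2-/-. Both were exposed for 16 h to 1 µM Dex or to its vehicle ethanol (EtOH), which gave 4 groups of 3 biological replicates: control EtOH, control Dex, dKO EtOH and dKO Dex. The number of embryos or pooling behind a replicate is not stated in the labels, so the tests measure the spread between these cultures. Each level is the log2 of a background-corrected, quantile-normalized signal. Each probe was compared only with itself, since brightness differs between probes for reasons other than RNA amount.

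On each array, between 10953 and 11527 of 25697 probes (42.6% to 44.9%) were above background, and precision is limited by how many arrays there are. The third principal component (14.9% of the variance) set apart control Dex replicate 3 and dKO EtOH replicates 1 and 2, and calls that change without these 3 arrays are given as such. Their scores were -31.1, -16.4 and -14.1, while dKO EtOH replicate 3 scored 14.5. The dKO EtOH group was thus split, and without these 3 arrays only its replicate 3 is left. The deleted genes did not check the labels. The only Cry1 probe was below background on all arrays, and the only Cry2 probe read 5.90 to 6.79 on the control arrays and 6.36 to 7.08 on the dKO arrays, hence not lower where the gene is labelled as deleted. The position of either probe with respect to the deleted exons is not stated in the labels or files, so dKO means labelled dKO throughout. Of 12 fibroblast markers, 11 were above background and Fn1 had no probe, with a summed level of 15.92 to 16.08 over the control arrays and 16.61 to 16.74 over the dKO arrays. Of 10 macrophage markers, 6 were above background (Adgre1, Aif1, Cd14, Lyz2, Mrc1 and Tyrobp), while Itgam and Ptprc were below it and Cd68 and Csf1r had no probe named for them. Their summed level was 15.77 to 15.90 in control EtOH and 15.43 to 15.76 in control Dex. On the dKO arrays it was 15.18 to 15.69 with EtOH and 15.02 to 15.10 with Dex. None of 7 epithelial and none of 6 hepatocyte markers was above background, and 2 of 7 endothelial, 2 of 8 neural and 2 of 6 muscle markers were. Each sum is weighted to the brighter genes of its list. The muscle sum (Acta1 and Des) was 12.27 to 12.65 on the control arrays and 13.40 to 13.67 on the dKO arrays. At an adjusted p under 0.05 (limma), 1 of these 2 genes was higher and 1 lower in dKO cells, with EtOH and with Dex alike. The neural sum (Map2 and Nes) was 9.77 to 9.86 in control EtOH and 10.46 to 10.97 in control Dex. In dKO cells it was 10.24 to 10.58 with EtOH and 11.23 to 11.28 with Dex. At the same threshold, 1 of these 2 genes was higher and 1 lower with Dex, in control and in dKO cells. The endothelial sum (Emcn and Eng) was 9.52 to 9.71 in control EtOH and 9.59 to 10.03 in control Dex. In dKO cells it was 8.97 to 9.56 with EtOH and 9.74 to 9.81 with Dex. Emcn rose with Dex by 1.09 in control and 1.86 in dKO cells (limma, adjusted p of 0.00011 and 2.16e-06). It differed by -1.04 between dKO and control with EtOH (adjusted p = 0.00015). Eng was called in none of these comparisons. In these bulk samples, fewer cells of a type and less RNA per cell cannot be told apart.

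The promoters of the 3 members that Dex changed in control cells (Vdr, Nr2f1 and Nr2c1, described below) are printed so that the windows around their starts can be read for receptor and clock motifs. Vdr was to be shown as the member called in both genotypes. The other two were added after their values were seen. RefSeq windows of GRCm38.p6 run from 250 bases before to 50 bases after an annotated start and are written 5′ to 3′ on the gene's strand, with the GC box GGGCGG (either strand) in capitals. Nr2f1 has a second annotated start that is not printed.
Vdr, chr15:97908247-97908546, minus strand: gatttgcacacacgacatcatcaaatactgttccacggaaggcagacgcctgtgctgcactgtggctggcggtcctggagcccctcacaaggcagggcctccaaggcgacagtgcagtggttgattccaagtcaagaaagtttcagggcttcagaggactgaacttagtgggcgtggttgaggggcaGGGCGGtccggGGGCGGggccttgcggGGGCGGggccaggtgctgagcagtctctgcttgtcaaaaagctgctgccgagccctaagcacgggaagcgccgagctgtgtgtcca
Nr2f1, chr13:78198824-78199123, minus strand: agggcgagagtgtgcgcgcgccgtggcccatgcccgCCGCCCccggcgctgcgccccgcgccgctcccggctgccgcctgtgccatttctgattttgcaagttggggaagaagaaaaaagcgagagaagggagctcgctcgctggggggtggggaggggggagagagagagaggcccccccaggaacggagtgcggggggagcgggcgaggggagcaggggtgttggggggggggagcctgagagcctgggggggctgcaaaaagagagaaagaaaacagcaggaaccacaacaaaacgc
Nr2c1, chr10:94147681-94147980, plus strand: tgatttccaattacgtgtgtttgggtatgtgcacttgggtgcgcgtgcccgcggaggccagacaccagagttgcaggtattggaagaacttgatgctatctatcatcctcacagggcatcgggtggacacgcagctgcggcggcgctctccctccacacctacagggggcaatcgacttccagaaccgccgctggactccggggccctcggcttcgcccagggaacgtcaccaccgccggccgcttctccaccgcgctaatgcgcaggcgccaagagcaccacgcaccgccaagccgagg
Counted from 0 at the start, the Vdr window holds GC boxes at -63, -52 and -36, and the Nr2f1 window holds 1 on the opposite strand at -214. The Nr2c1 window holds none. Their GC content was 61.3%, 68.0% and 63.3%. None of the 3 windows holds the glucocorticoid receptor half-site AGAACA, the general receptor half-site AGGTCA or the E-box CACGTG on either strand. No match says only that these letters are not in this window. Over all 32851 mouse windows, AGAACA was found in 18.97%, AGGTCA in 16.3%, CACGTG in 7.15% and GGGCGG in 35.7%. Of the 61 windows of the listed genes, 7 held AGAACA, 9 held AGGTCA, 5 held CACGTG and 28 held GGGCGG. A letter match is a description and not a binding site.

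Of 4 steroid receptors, 3 had a probe (Nr3c1, Esr1 and Pgr) and none was tested. Of 16 RXR partners and RXRs, 15 had a probe and 5 were tested (Rarg, Rxra, Rxrb, Vdr and Nr1h3). Of 19 orphan receptors, all had a probe and 9 were tested (Rora, Rorb, Nr2c1, Nr2f1, Nr2f2, Nr2f6, Nr4a2, Nr6a1 and Esrra). Of 7 coregulators, 6 had a probe and 2 were tested (Ncoa1 and Ppargc1b). The probes above background were so on all 12 arrays for 12 of these members, on 9 for Nr2f2, 7 for Ppargc1b, 5 for Nr4a2 and 4 for Rorb. The mineralocorticoid receptor Nr3c2, the oxysterol receptor Nr1h2 and the corepressor Ncor1 had no probe named for them.

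**Figure D1:**
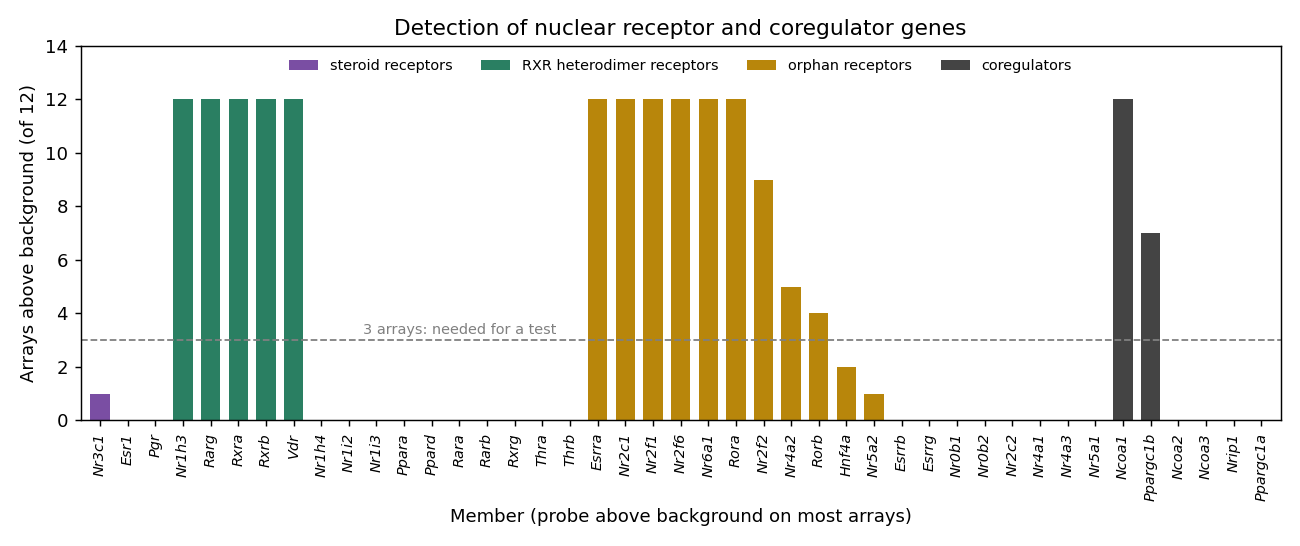
Number of arrays (of 12, vertical axis) on which the best probe of each of the 43 members with a probe was above background, coloured by role; the dashed line marks the 3 arrays needed for a test. The line was reached by none of the 3 steroid receptors, 5 of the 15 RXR partners and RXRs, 9 of the 19 orphan receptors and 2 of the 6 coregulators.

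Below background were 27 members with 36 probes, whose levels lay between 4.50 and 6.37 on all arrays. For 24 of them no probe was above background on any array. These were the oestrogen and progesterone receptors Esr1 and Pgr; the retinoid receptors Rara, Rarb and Rxrg; the thyroid hormone receptors Thra and Thrb; the fatty acid receptors Ppara and Ppard; and the bile acid and xenobiotic receptors Nr1h4, Nr1i2 and Nr1i3. The orphan receptors among them were Nr2c2, Nr4a1, Nr4a3, Nr5a1, Esrrb, Esrrg, Nr0b1 and Nr0b2, and the coregulators were the p160 coactivators Ncoa2 and Ncoa3, the corepressor Nrip1 and the coactivator Ppargc1a. Nr3c1 and Nr5a2 were above background on 1 array each and Hnf4a on 2. A probe below background bounds only what that probe reads.

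Nr3c1, the gene of the glucocorticoid receptor that Dex binds, read 5.53, 4.73 and 5.51 in control EtOH and 5.04, 5.20 and 6.33 in control Dex. In dKO cells it read 5.55, 5.17 and 5.43 with EtOH and 6.12, 5.48 and 5.70 with Dex. The single array above background was control Dex replicate 3. Group means were 5.26 ± 0.46, 5.52 ± 0.70, 5.38 ± 0.19 and 5.77 ± 0.32 (SD, n = 3) and the ranges of the groups overlapped in every comparison. No comparison of the receptor's transcript could be made from this probe.

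Dex changed few of the 16 tested members, and the 3 it changed in control cells included the vitamin D receptor, which rose 1.94-fold. In control cells 3 of 16 members were called at an adjusted p under 0.05, 1 higher and 2 lower, where 20.3% of all 8420 genes were called (8.85% higher and 11.4% lower). In dKO cells 3 of 16 were called, all higher, where 14.6% of all genes were called (8.62% higher and 5.99% lower). The members' median change was -0.06 in control and 0.09 in dKO cells, beside -0.04 and 0.03 over all genes. At an unadjusted p under 0.05, 5 members passed in control and 4 in dKO cells. The members' shares are near those of all genes, so the counts say nothing particular about the list.

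**Figure D2:**
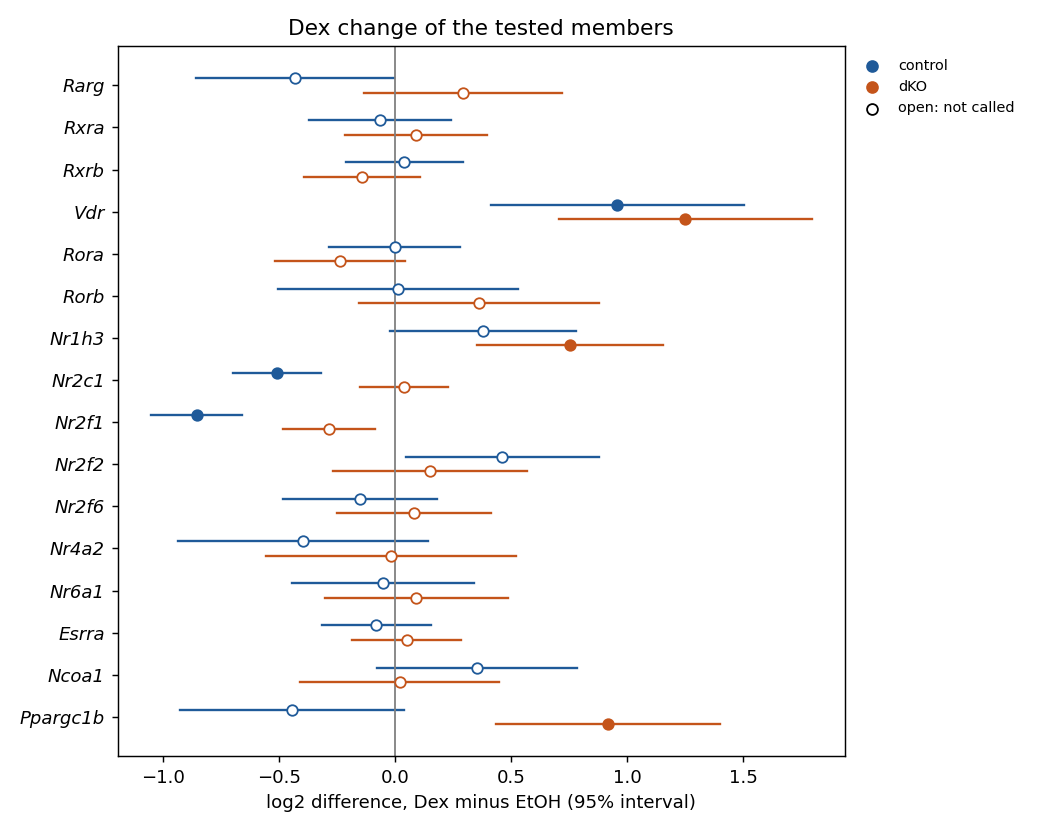
Log2 difference between Dex and EtOH (horizontal axis) with its 95% interval for the 16 tested members, in control cells (blue) and dKO cells (orange); filled points were called and open points were not. Vdr was called in both genotypes, Nr2f1 and Nr2c1 were called lower in control cells, and Nr1h3 and Ppargc1b were called higher in dKO cells.

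Vdr, the receptor for 1,25-dihydroxyvitamin D, was the only member called for Dex in both genotypes. It read 8.43, 8.72 and 8.55 in control EtOH and 9.89, 9.76 and 8.93 in control Dex. In dKO cells it read 8.22, 8.15 and 8.92 with EtOH and 9.63, 9.82 and 9.58 with Dex. Every Dex array lay above every EtOH array of its genotype, and control Dex replicate 3 was the lowest of the 6 Dex arrays. Vdr rose by 0.96 ± 0.25 (log2, SE; 1.94-fold) in control and 1.25 ± 0.25 (2.38-fold) in dKO cells, with adjusted p of 0.0177 and 0.00618 (limma). The Dex changes differed between genotypes by 0.29 (95% interval -0.48 to 1.06, adjusted p = 0.648), an interval that reaches well to both sides of 0. There were 2 further Vdr probes above background on all arrays. Tested as separate items, they differed by 1.14 and 0.67 in control cells (adjusted p of 0.000306 and 0.0924, the latter not called) and rose by 1.09 and 1.22 in dKO cells (adjusted p of 0.000625 and 0.00900). Leaving out control EtOH replicate 1 or 3, or control Dex replicate 1 or 2, ended the call in control cells (0.89, 0.95, 0.78 and 0.84, adjusted p of 0.0670, 0.0549, 0.0656 and 0.0659). Without the 3 arrays set apart, the change was 1.25 in control and 0.76 in dKO cells, and both calls held (adjusted p of 0.000132 and 0.0158). In this and all other values without these 3 arrays, dKO EtOH is a single array assumed to vary like the other groups.

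Nr2f1, which encodes the orphan receptor COUP-TFI, fell by 0.85 ± 0.09 (1.81-fold lower, adjusted p = 5.19e-05) with Dex in control cells. It read 11.15, 11.26 and 11.22 in control EtOH and 10.43, 10.32 and 10.31 in control Dex, and the groups lay far apart relative to their spread. In dKO cells it read 10.93, 11.12 and 11.01 with EtOH and 10.77, 10.64 and 10.79 with Dex. The difference there was -0.28 ± 0.09 (adjusted p = 0.0560), not called, with groups that did not overlap. The Dex changes differed by 0.57 ± 0.13 between genotypes (adjusted p = 0.0460). The call in control cells held in all 11 other settings and without each of the 12 arrays.

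Nr2c1, which encodes the testicular receptor TR2, fell by 0.51 ± 0.09 (1.42-fold lower, adjusted p = 0.00145) with Dex in control cells. Its values were 7.28, 7.29 and 7.35 in control EtOH and 6.93, 6.75 and 6.72 in control Dex. In dKO cells they were 7.10, 7.18 and 7.13 with EtOH and 7.17, 7.20 and 7.17 with Dex. The 3 control Dex arrays were the lowest of the 12, and the dKO groups overlapped, with a difference of 0.04 ± 0.09 (adjusted p = 0.795). The call in control cells held in all 11 other settings and without each array, between -0.60 and -0.24.

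Nr1h3, the oxysterol receptor LXRα, rose by 0.75 ± 0.18 (1.69-fold, adjusted p = 0.0183) with Dex in dKO cells. It read 7.72, 6.96 and 7.24 in dKO EtOH and 7.83, 8.15 and 8.20 in dKO Dex. In control cells it read 7.74, 7.83 and 7.95 with EtOH and 8.46, 8.07 and 8.12 with Dex, a difference of 0.38 ± 0.18 that was not called (adjusted p = 0.180). Every Dex array was above every EtOH array of its genotype, and the 2 changes differed by 0.37 ± 0.26 (95% interval -0.19 to 0.94, adjusted p = 0.408). A second Nr1h3 probe was above background on 1 array and was not tested. LXRα is also a macrophage gene. Over the macrophage markers, 1 was called higher and 4 lower with Dex in control cells, and 1 higher (Mrc1) and 1 lower (Aif1) in dKO cells. Their part in the Nr1h3 values was not tested. The call was lost without dKO EtOH replicate 2 (0.58, adjusted p = 0.0770), dKO Dex replicate 2 (0.71, 0.0649) or dKO Dex replicate 3 (0.68, 0.0714), and with only the groups compared in the fit (0.75, 0.0634).

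Ppargc1b, the coactivator PGC-1β that works with ERR receptors on mitochondrial genes, rose by 0.92 ± 0.22 (adjusted p = 0.0172) with Dex in dKO cells. It read 5.14, 5.23 and 5.76 in dKO EtOH, below background on all 3 arrays, and 6.32, 6.55 and 6.01 in dKO Dex. Because of that the rise is a bound, at least 1.10-fold. In control cells it read 6.62, 6.70 and 6.55 with EtOH and 6.37, 6.48 and 5.70 with Dex, a difference of -0.44 ± 0.22 (adjusted p = 0.194). The fitted difference of the Dex changes was 1.36 ± 0.31 (adjusted p = 0.0488). With dKO EtOH raised to its floor, the lowest signal above background on each array, the difference is bounded at 0.58 or more, and that bound was not tested. The call in dKO cells was lost without dKO EtOH replicate 1 or 2 (0.80 and 0.84, adjusted p of 0.0706 and 0.0697) or dKO Dex replicate 1 or 2 (0.90 and 0.79, 0.0549 and 0.0704), and without the 3 arrays set apart (0.53, 0.132).

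The other tested members were not called for Dex in either genotype. Of these, Rora, Rxra, Rxrb, Esrra, Nr6a1 and Nr2f6 differed between Dex and EtOH by -0.24 to 0.09 in both genotypes at the probe each was read from. The second probes of Nr2f6 and Rxrb gave -0.52 and -0.28 in dKO cells (adjusted p of 0.214 and 0.154 by limma, not called). In control cells these probes gave -0.07 and -0.06. Rarg, the γ retinoic acid receptor, differed by -0.43 ± 0.19 in control cells (adjusted p = 0.150) and 0.29 ± 0.19 in dKO cells (adjusted p = 0.339). Nr2f2, which encodes COUP-TFII, differed by 0.46 ± 0.19 in control (adjusted p = 0.115) and 0.15 ± 0.19 in dKO cells. The p160 coactivator Ncoa1 differed by 0.35 ± 0.20 in control and 0.02 ± 0.20 in dKO cells. Nr4a2 (NURR1) differed by -0.40 ± 0.25 and -0.02 ± 0.25, and Rorb by 0.01 ± 0.24 and 0.36 ± 0.24.

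The difference between the 2 Dex changes was called for 3 of 16 members, Nr2c1, Nr2f1 and Ppargc1b, and was positive for all 3. Over all genes 2.29% were called (1.28% higher and 1.01% lower), and the median difference was 0.26 over the members beside 0.08 over all genes. At an unadjusted p under 0.05, 4 members passed. The fourth was Rarg, with a difference of 0.73 ± 0.28 (adjusted p = 0.157 by limma). A second Rarg probe above background gave a difference of 0.02 (95% interval -1.12 to 1.16, adjusted p = 0.984). At the first probe Rarg read 8.28, 8.36 and 8.37 in control EtOH and 8.18, 7.88 and 7.66 in control Dex. In dKO cells its values were 7.97, 8.01 and 8.78 with EtOH and 8.53, 8.61 and 8.50 with Dex. In dKO EtOH replicate 3 it stood apart from the other two arrays of its group. All 3 calls sat close to the threshold. Under other settings the call held in 2 of 11 for Nr2c1, 6 for Nr2f1 and 3 for Ppargc1b, and when 1 array was left out in 2, 1 and 2 of 12. These were the fits without dKO EtOH replicate 3 for all 3 members, without control Dex replicate 1 for Nr2c1 and without control Dex replicate 2 for Ppargc1b, and leaving out any other array ended the call. Adjusted p reached 0.141, 0.127 and 0.177, each without the 3 arrays set apart, where the differences were 0.51, 0.56 and 0.73.

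**Figure D3:**
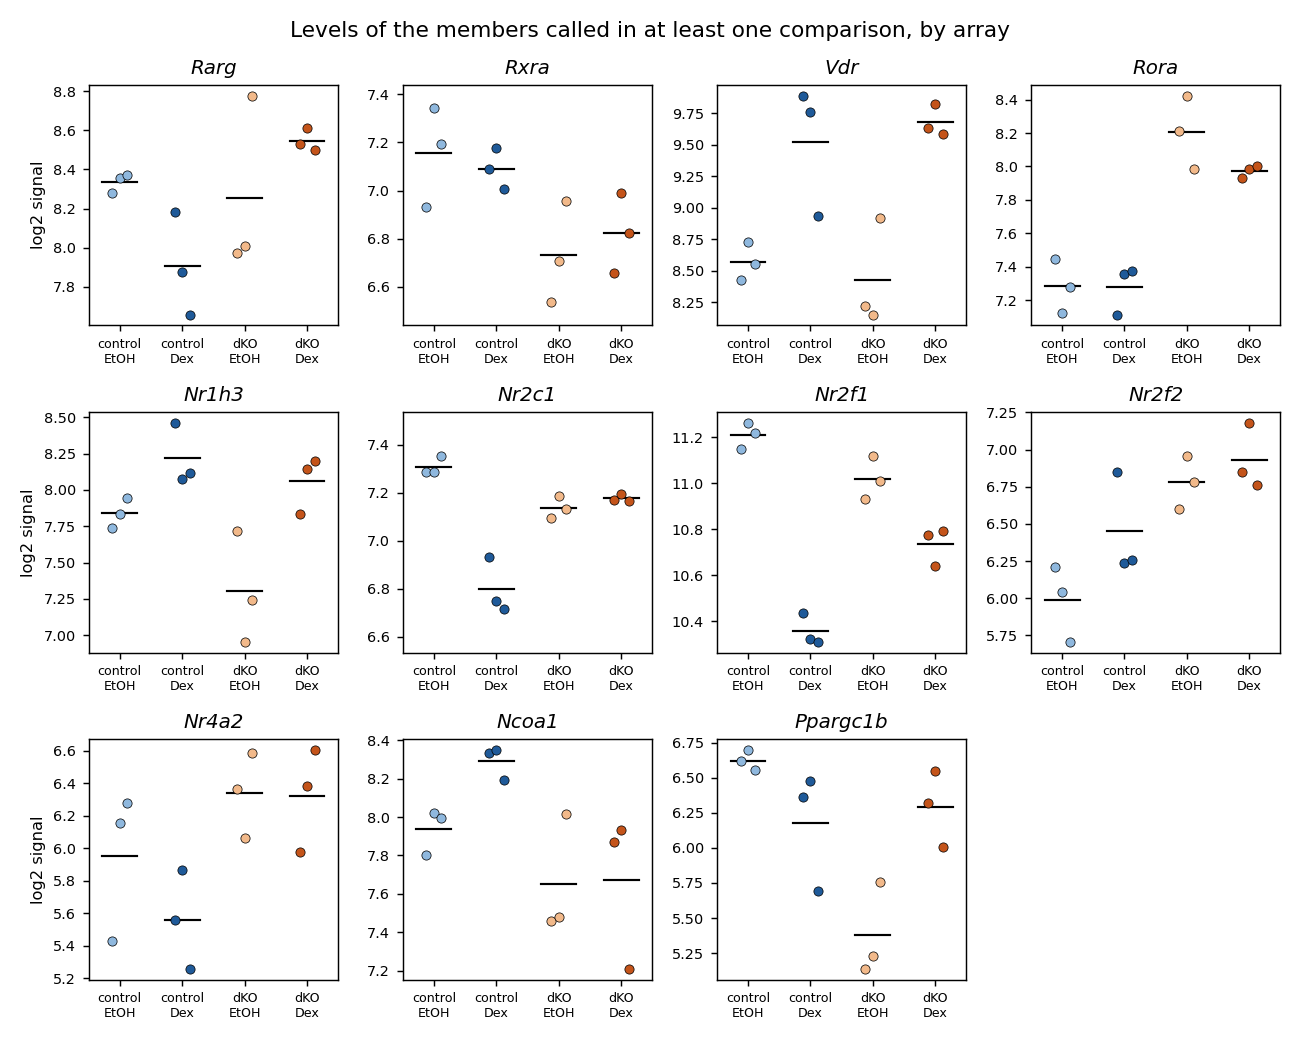
Log2 signal (vertical axis, scaled for each gene) of the 11 members called in at least 1 comparison, on each of the 12 arrays in 4 groups; points are arrays and bars are group means. Vdr lies higher with Dex in both genotypes, Nr2f1 and Nr2c1 are lowest in control Dex, Rora is higher on all 6 dKO arrays, and Ppargc1b is lowest in dKO EtOH.

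Between the genotypes, Rora stood out as the member with the smallest p in both treatments, higher on every array labelled dKO. With EtOH 4 of 16 members were called, 2 higher in dKO (Rora and Nr2f2) and 2 lower (Rxra and Ppargc1b), where 26.6% of all genes were called (10.7% higher and 15.8% lower). With Dex 6 of 16 were called, 5 higher in dKO (Rora, Nr2f1, Nr2c1, Rarg and Nr4a2) and 1 lower (Ncoa1), where 19.7% of all genes were called (9.89% higher and 9.81% lower). Their medians were -0.11 with EtOH and 0.26 with Dex, beside -0.05 and 0.01 over all genes. At an unadjusted p under 0.05, 5 and 8 members passed. With arrays scaled to a common median the calls were 2 higher and 5 lower with EtOH, and 3 higher and none lower with Dex. These comparisons share their samples with the Dex comparisons, so the same arrays stand behind both.

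**Figure D4:**
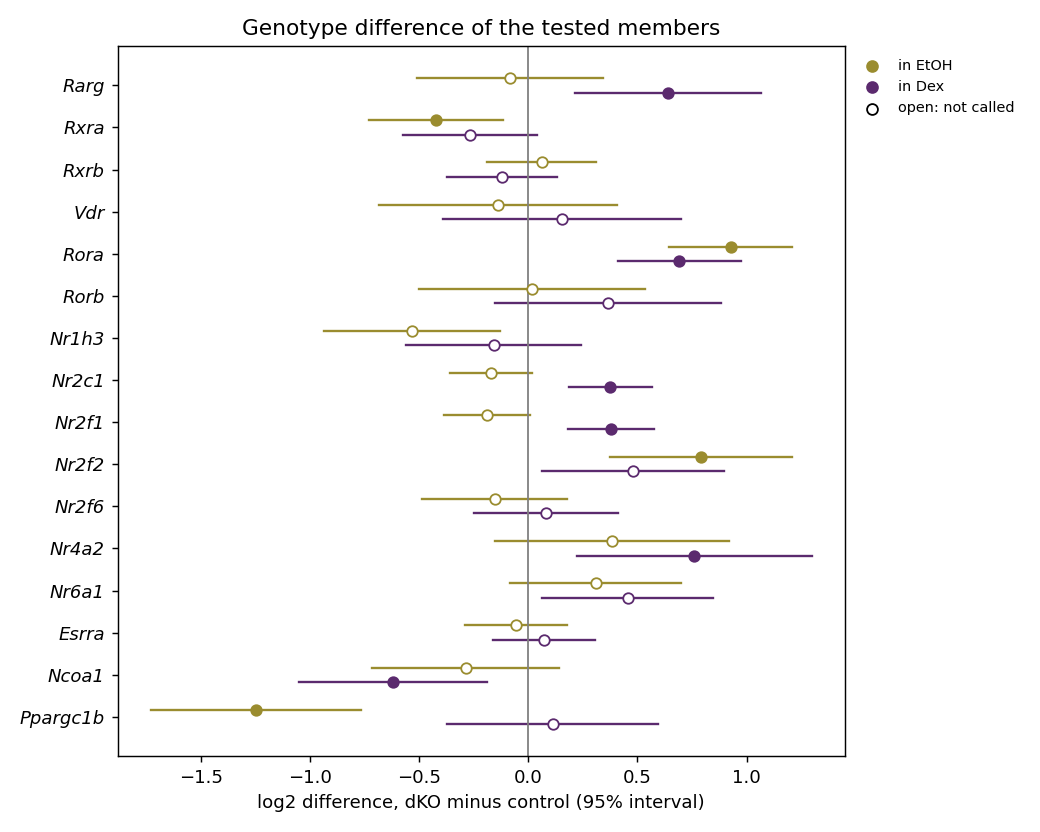
Log2 difference between dKO and control (horizontal axis) with its 95% interval for the 16 tested members, with EtOH (olive) and with Dex (purple); filled points were called and open points were not. Rora was called in both treatments, and Ppargc1b with EtOH had the interval farthest below 0.

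Rora encodes RORα, which binds the RORE elements of clock genes such as Arntl and activates them. It read 7.45, 7.12 and 7.28 in control EtOH and 8.21, 8.42 and 7.99 in dKO EtOH. With Dex it read 7.11, 7.36 and 7.37 in control and 7.93, 7.98 and 8.001 in dKO cells. The lowest dKO array was above the highest control array in both treatments. Rora was higher by 0.93 ± 0.13 (1.90-fold, adjusted p = 0.000332) with EtOH and by 0.69 ± 0.13 (1.62-fold, adjusted p = 0.00274) with Dex. Both calls held in all 11 other settings and without each array, between 0.54 and 1.04 with EtOH and between 0.38 and 0.74 with Dex. A second Rora probe was below background on all arrays.

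Ppargc1b was lower in dKO cells with EtOH, with a difference of -1.25 ± 0.22 (adjusted p = 0.00167). As dKO EtOH was below background on all 3 arrays, the difference is at least 1.38-fold. With Dex the groups overlapped (0.11 ± 0.22, adjusted p = 0.773). The call with EtOH held in all 11 other settings and without each array, down to -0.41.

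Nr2f2 was higher by 0.79 ± 0.19 (1.73-fold, adjusted p = 0.0105) in dKO cells with EtOH. It read 6.21, 6.04 and 5.71 in control EtOH, above background on 1 array, and 6.60, 6.96 and 6.78 in dKO EtOH, above it on all 3. With Dex it read 6.85, 6.24 and 6.26 in control and 6.85, 7.18 and 6.76 in dKO cells, a difference of 0.48 ± 0.19 that was not called (adjusted p = 0.101). Other Nr2f2 probes were above background on 1 array or on none and were not tested. The call with EtOH was lost only without the 3 arrays set apart (0.80, adjusted p = 0.0773). Its homologue Nr2f1 was higher by 0.38 ± 0.09 in dKO cells with Dex (adjusted p = 0.0116) and differed by -0.19 ± 0.09 with EtOH (adjusted p = 0.138). Nr2c1 was higher by 0.38 ± 0.09 with Dex (adjusted p = 0.00954), a call lost in 3 of 11 settings (without background correction, on the deposited values and with a variance trend).

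The remaining 4 genotype calls were close to the threshold. Rxra, which encodes 1 of the RXRs, read 6.93, 7.34 and 7.19 in control EtOH and 6.54, 6.71 and 6.96 in dKO EtOH, which overlapped by a narrow margin. It was lower in dKO cells, with a difference of -0.42 ± 0.14 (adjusted p = 0.0450). With Dex it read 7.09, 7.18 and 7.01 in control and 6.66, 6.99 and 6.82 in dKO cells (-0.27 ± 0.14, adjusted p = 0.215). Rarg was higher by 0.64 ± 0.19 in dKO cells with Dex (adjusted p = 0.0381). Its second probe above background gave 0.77 ± 0.37 (adjusted p = 0.185), and with EtOH the 2 probes gave -0.08 and 0.75, neither called. Nr4a2 read 5.43, 6.15 and 6.28 in control EtOH and 5.56, 5.86 and 5.26 in control Dex. The dKO values were 6.37, 6.06 and 6.58 with EtOH and 5.98, 6.38 and 6.60 with Dex. It was higher by 0.76 ± 0.25 with Dex (adjusted p = 0.0488), a bound of at least 1.10-fold because control Dex was below background on all 3 arrays. The arrays with Nr4a2 above background were 1 of control EtOH, 2 of dKO EtOH and 2 of dKO Dex. Without the dKO arrays it would not have met the filter of 3 arrays, so the filter and this difference are not independent. Ncoa1, also known as SRC-1, read 7.80, 8.02 and 7.99 in control EtOH and 8.33, 8.35 and 8.19 in control Dex. The dKO arrays read 7.46, 7.48 and 8.02 with EtOH and 7.87, 7.93 and 7.21 with Dex. It differed by -0.62 ± 0.20 with Dex (adjusted p = 0.0454), and no array of one group reached the other. Of the 11 other settings, the call held in 2 for Rxra, 8 for Rarg, 2 for Nr4a2 and 5 for Ncoa1. Leaving out 1 array kept the call in 5 of 12 cases for Rxra, 4 for Rarg, 4 for Nr4a2 and 3 for Ncoa1. The arrays whose absence kept it were control EtOH 1, control Dex 3, dKO EtOH 3 and dKO Dex 1 and 2 for Rxra, and control Dex 1 and all 3 of dKO EtOH for Rarg. For Nr4a2 they were control EtOH 1, control Dex 2, dKO EtOH 3 and dKO Dex 1, and for Ncoa1 dKO EtOH 1 and 3 and dKO Dex 2. Over all settings, adjusted p reached 0.513, 0.106, 0.172 and 0.160. Rxra differed by -0.20 without the 3 arrays set apart, and Ncoa1 by -0.39 without dKO Dex replicate 3.

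Nr1h3 differed by -0.53 ± 0.18 in dKO cells with EtOH (adjusted p = 0.0512) and -0.16 ± 0.18 with Dex (adjusted p = 0.602), and neither was called. Of the 6 macrophage markers above background, 5 were called lower in dKO with EtOH and 4 with Dex, where 15.8% and 9.81% of all genes were called lower. Adgre1 differed by -0.88 and -0.50, Cd14 by -0.99 and -0.70, and Mrc1 by -0.91 and -0.82. Fibroblast markers were called higher in 8 cases and lower in 1 with EtOH, and higher in 7 with Dex, where 10.7% and 9.89% of all genes were called higher. The part of these cell types in the genotype differences of the members was not tested.

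Rxrb, Nr2f6, Esrra, Nr6a1 and Rorb were called in none of the 5 comparisons. Rxrb had group means of 11.18, 11.22, 11.24 and 11.10 in control EtOH, control Dex, dKO EtOH and dKO Dex, and its second probe was not called either. Esrra, the orphan receptor ERRα of mitochondrial genes, had means of 10.70, 10.62, 10.65 and 10.70, and its differences in the Dex and genotype comparisons ran from -0.08 to 0.07. Nr2f6, which encodes EAR2, had means of 10.95, 10.80, 10.80 and 10.88. Its second probe gave 0.50 for dKO against control with EtOH where the first gave -0.15, neither called. Nr6a1 (GCNF) had means of 6.80, 6.75, 7.11 and 7.21, and Rorb 5.986, 5.998, 6.003 and 6.363 with 4 arrays above background.

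Enzymes and carriers that supply ligand to the retinoid receptors, with related genes, made a list of 15, of which 7 were tested. The shares of all genes called, against which this and the following lists are to be read, were 20.3% and 14.6% for Dex in control and dKO cells, 26.6% and 19.7% for genotype with EtOH and Dex, and 2.29% for the difference of Dex changes. All 7 were called for Dex in control cells. With Dex, 2 rose and 5 fell in control cells, and 2 rose and 3 fell in dKO cells. Aldh1a1, which makes retinoic acid, rose from 9.20 ± 0.18 to 11.98 ± 0.05 in control (2.78 ± 0.13, adjusted p = 5.14e-08) and from 8.62 ± 0.09 to 11.80 ± 0.21 in dKO cells (3.18 ± 0.13, 2.11e-08). The retinoic acid carrier Crabp2 fell from 7.93 ± 0.20 to 6.60 ± 0.09 and from 9.17 ± 0.12 to 7.59 ± 0.05. Tgm2, a retinoid-responsive transglutaminase, rose by 1.32 ± 0.21 and 2.05 ± 0.21. The alcohol dehydrogenase Adh7 fell by 1.27 ± 0.13 (adjusted p = 5.38e-05) and 0.57 ± 0.13 (0.0154) on the log2 scale. Between genotypes, 3 were higher and 2 lower in dKO with EtOH, and 5 higher with Dex. Adh7 stood at 7.90 ± 0.17 in control EtOH and 12.22 ± 0.07 in dKO EtOH (4.32 ± 0.13, adjusted p = 1.07e-08), and at 6.63 ± 0.27 and 11.65 ± 0.05 with Dex (5.01 ± 0.13, 1.94e-09). Adh1 was higher in dKO by 1.01 ± 0.14 and 1.03 ± 0.14, and Crabp2 by 1.24 ± 0.11 and 0.99 ± 0.11. Aldh1a1 was lower in dKO with EtOH (-0.58 ± 0.13) and Crabp1 higher with Dex (0.98 ± 0.17). The Dex change of the carrier Crabp1 differed between genotypes by 1.05 ± 0.24 (adjusted p = 0.0458), the only call of the 7. The median of the 7 was -0.64 and -0.34 for Dex in control and dKO cells, and 0.38 and 0.98 for genotype with EtOH and Dex, beside the medians of all genes given above.

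**Figure D5:**
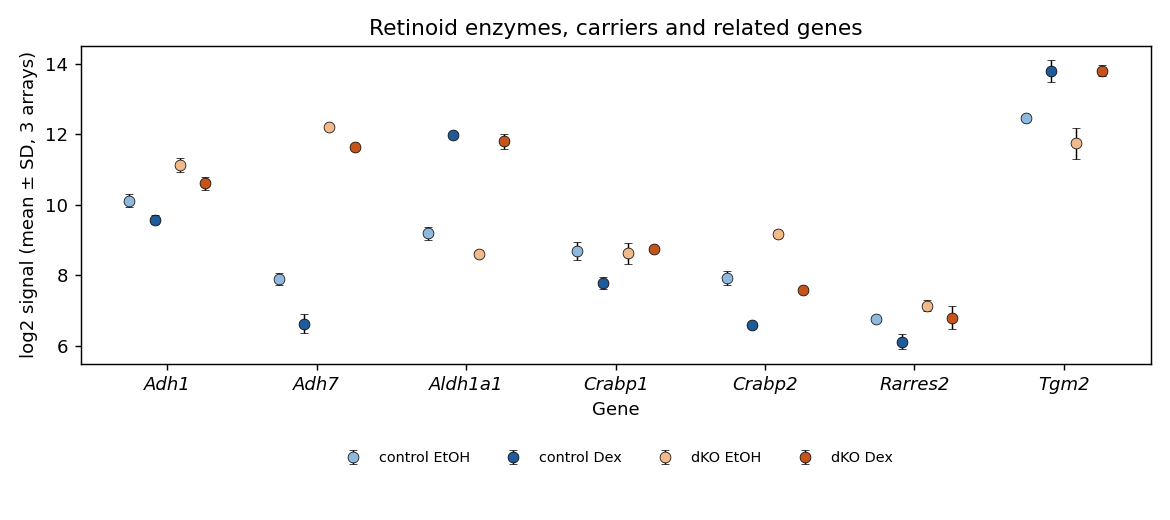
Log2 signal (mean ± SD of 3 arrays, vertical axis) of the 7 tested retinoid enzymes, carriers and related genes in the 4 groups. Aldh1a1 and Tgm2 lie higher with Dex in both genotypes, Crabp2 lower, and Adh7 lies more than 4 log2 units higher in dKO than in control cells.

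Target genes of LXR, with 7 of 10 tested, gave 2 higher and 1 lower call with Dex in control cells and 1 and 1 in dKO cells (20.3% and 14.6% of all genes were called). Lpl, the lipoprotein lipase, fell by 0.50 ± 0.11 and 0.85 ± 0.11 on the log2 scale, Scd2 and Scd1, the stearoyl-CoA desaturases, rose by 1.21 ± 0.29 and 0.62 ± 0.11 in control cells, and Lpcat3 rose by 0.54 ± 0.13 in dKO cells. Between genotypes 1 was higher and 3 lower in dKO with EtOH, and 2 lower with Dex (26.6% and 19.7% of all genes were called). Lpl was lower in both treatments (-0.42 ± 0.11 and -0.77 ± 0.11), and with EtOH Lpcat3 was lower (-0.52 ± 0.13) and Scd1 higher (0.41 ± 0.11). Apoe, a lipoprotein component that macrophages also express, was lower in dKO cells with differences of -1.31 ± 0.12 (adjusted p = 1.72e-05) and -1.40 ± 0.12 (8.76e-06). Macrophage markers were lower in dKO cells as well, and their part in the Apoe values was not tested. The sterol transporters Abca1 and Abcg1 and the ubiquitin ligase Mylip were below background.

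Of 10 PPAR target genes, 5 were tested. Pdk4, the pyruvate dehydrogenase kinase that Dex is known to induce, rose by 2.69 ± 0.14 in control (adjusted p = 1.30e-07) and 1.95 ± 0.14 in dKO cells (2.24e-06). Angptl4 differed by -1.38 ± 0.17 and -0.88 ± 0.17, both called lower. Acadm rose by 0.33 ± 0.08 in dKO cells. Plin2, which coats lipid droplets, was lower in dKO, with differences of -0.60 ± 0.17 with EtOH and -1.22 ± 0.17 with Dex. With EtOH Pdk4 was higher in dKO (0.76 ± 0.14) and Angptl4 lower (-0.90 ± 0.17). Over the 5 genes the counts were 1 higher and 2 lower with EtOH and 1 lower with Dex. All 10 target genes of ERR and PGC-1 were tested. For Dex, 0 were called in control and 1 in dKO cells, and for genotype 0 with EtOH and 2 with Dex, where 20.3%, 14.6%, 26.6% and 19.7% of all genes were called. The called genes were Acadm with Dex in dKO cells, and with Dex treatment Sirt3 higher (0.44 ± 0.09, adjusted p = 0.00537) and Got2 lower (-0.30 ± 0.08, adjusted p = 0.0227) in dKO than in control cells. 

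Of 8 thyroid hormone and vitamin D target genes, 3 were tested. Klf9 rose by 1.24 ± 0.14 in control and 0.92 ± 0.14 in dKO cells with Dex. Me1 differed by -0.55 ± 0.12 with Dex in dKO cells and was higher by 0.56 ± 0.12 in dKO with EtOH. Cyp24a1, the vitamin D hydroxylase that the vitamin D receptor induces, did not pass the detection filter.

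Subunits of the corepressor complexes gave 9 tested genes of 13. In control EtOH Tbl1xr1 was below background on all 3 arrays, so its differences from that group are bounds. With Dex in control cells it was at least 1.31-fold higher (adjusted p = 0.00138), while Gps2 and Kdm1a were lower (-0.46 ± 0.09 and -0.40 ± 0.12). None of the 9 was called for Dex in dKO cells, beside 3 of 9 in control cells, where 14.6% and 20.3% of all genes were called. Gps2, a subunit of the NCoR complex, stood at 10.39 ± 0.06 with EtOH and 9.93 ± 0.02 with Dex in control cells. In dKO cells it stood at 9.93 ± 0.13 and 10.17 ± 0.02. Its Dex changes differed by 0.70 ± 0.13 (adjusted p = 0.0230). Between genotypes Tbl1xr1 and Hdac1 were higher in dKO with EtOH (at least 1.27-fold, adjusted p = 0.00189, and by 0.39 ± 0.11) and Gps2 lower (-0.47 ± 0.09), and Sin3a was lower with Dex (-0.30 ± 0.08). Of 15 coactivator partners, 11 were tested and 2 were called, each once. Prmt1, an arginine methyltransferase, was lower with Dex in control cells (-0.39 ± 0.10, adjusted p = 0.0184), and Ncoa4 was higher in dKO with EtOH (1.06 ± 0.23, adjusted p = 0.00572).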

How the data were processed

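The bead-array intensity of each probe (mean bead signal) and its detection p-value were taken from the table the authors deposited, which per the file headers is not normalized. GenomeStudio is named without a version in the submitters' processing notes, and no other step is given in the sources used here. A second deposited table of intensity values, normalized between arrays by the authors with unstated steps, served as an alternative. Probe names were updated by Entrez identifier (23962 of 23978 named probes). The deposited signals were background-corrected with limma's nec from the detection p-values (offset 16), and arrays were quantile normalized. Log2 values of the corrected, normalized signals were tested with limma 3.58.1 (R 4.3.3, lmFit and eBayes, 1 mean per group, 11.5 total degrees of freedom). A gene was read from its probe above background (detection p under 0.01 on at least 3 arrays) with the highest mean, and p-values were adjusted by Benjamini-Hochberg over 8420 genes, with calls at an adjusted p under 0.05. Bounds replace folds where a group was below background on all its arrays, and they use the lowest signal above background on each array. An added offset makes fold changes of dim probes smaller, the more so the larger it is. The 46 genes, the further lists and the markers were chosen with earlier results of these data known. Named were all members called in any comparison or past an unadjusted p of 0.05 for the difference of Dex changes, and, of each further list, up to 4 called genes with the smallest p in each comparison, whose values in the other comparisons may be given too. Promoters came from RefSeq (40 of 46 genes matched). The GC box was searched after the sequences were seen. The fit was tested on simulated data.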

Additional observations from a re-analysis of the deposited data

Results flagged for a closer look

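For 3 members the Dex change in dKO cells differed from that in control cells by the test of the difference itself (limma, adjusted over all genes). These calls sat close to the threshold and held in 2 of 11 other settings for Nr2c1, 6 for Nr2f1 and 3 for Ppargc1b. When 1 array was left out, they held in 2, 1 and 2 of 12 fits. Nr2c1 differed by 0.55 ± 0.12 (adjusted p = 0.0457), with 3 of 3 control Dex arrays below all control EtOH arrays and overlapping dKO groups. Nr2f1 differed by 0.57 ± 0.13 (adjusted p = 0.0460), with lower Dex arrays in both genotypes. Ppargc1b differed by 1.36 ± 0.31 (adjusted p = 0.0488), where dKO EtOH lay below background, so that the difference is bounded at 0.58 or more, a bound that was not tested.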

How the results depend on the processing

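No called change of a member reversed its sign under any of the 11 other settings or without 1 array. Sign changes of differences that were not called were not counted. The calls of Vdr for Dex in dKO cells, of Nr2f1 and Nr2c1 for Dex in control cells, of Nr2f1 for genotype with Dex, of Ppargc1b for genotype with EtOH and of Rora in both treatments held in all of them. The number of members called for Dex in control cells stayed between 2 and 4. For Dex in dKO cells it was 1 to 4 when 1 array was left out (1 without dKO EtOH replicate 2 or dKO Dex replicate 2). For genotype with EtOH it was 7 with median scaling. For genotype with Dex it was 3 with median scaling, with no filter and with the replicate block, and 3 to 7 when 1 array was left out. For the difference of Dex changes it was 1 without background correction, on the deposited values and with trend and robust variance, 0 with a detection p under 0.05, with no filter, with every probe as its own item, with the replicate block and without the 3 arrays set apart, and 0 to 4 when 1 array was left out; the cause was not tested. Over all genes that count was 193, against 34 with the replicate block and 1203 without dKO EtOH replicate 3. With arrays scaled to a common median, the median change over all genes went from -0.04 to -0.15 (Dex in control), 0.03 to 0.14 (Dex in dKO), -0.05 to -0.25 (genotype with EtOH) and 0.08 to 0.30 (difference of Dex changes). The share of all calls that were higher then went from 43.6% to 26.9%, 59.0% to 71.7%, 40.4% to 16.7% and 56.0% to 85.5%. With the replicate block the genotype calls with Dex of Rarg, Nr4a2 and Ncoa1 were not made (adjusted p of 0.0718, 0.0551 and 0.0834). Of 18 same-numbered pairs of arrays, 4 correlated above 0.1 (range -0.63 to 0.14). Differently numbered pairs were not compared, so these values do not settle whether replicate numbers pair the arrays. Signal over background limits 27 of the 43 members with a probe.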
